A study of Schmidtea mediterranea with 14 samples.

Results

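The transcripts described here are 6 planarian homologs of genes for DNA replication and for the synthesis of DNA precursors, chosen by the human protein that each transcript hit best. They are the homologs of CDC6 (dd_Smed_v6_18778_0_1), MCM3 (dd_Smed_v6_6734_0_1), MCM6 (dd_Smed_v6_2682_0_1), RPA2 (dd_Smed_v6_4341_0_1), RRM1 (dd_Smed_v6_1651_0_1) and TYMS (dd_Smed_v6_1260_0_1), 6 of 28069 transcripts counted, and all 6 were among the 18436 transcripts abundant enough to be tested. RNA was sequenced from whole, uninjured *Schmidtea mediterranea* of the clonal asexual strain CIW4 in 14 libraries, each from a pool of 5 to 6 animals. The 6 control libraries came from animals fed dsRNA of *egfp*, a gene that planarians lack, and the 4 *apob-M* and 4 *apob-S* libraries from *apob(RNAi)* animals fed dsRNA of both apolipoprotein B genes, *apob-1* and *apob-2*. All animals were fed 3 times, with a dsRNA dose of 2 µg recorded for every group, and then starved for 7 days. *apob-M* and *apob-S* animals had the same treatment and were separated by a mild or a severe phenotype, judged by loss of pigment, so these groups were not assigned at random.

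In animals and yeasts, replication origins are licensed before S phase, when the origin recognition complex, CDC6 and CDT1 load the ring of MCM2 to MCM7 that later unwinds the DNA. RPA then covers the single strands, while ribonucleotide reductase, thymidylate synthase and neighbouring enzymes supply the deoxynucleotides. In planarians, neoblasts are the dividing somatic cells, in which genes for DNA replication are mainly expressed. The planarian transcripts carry these names by similarity alone.

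Each library held between 16839133 and 23039326 counts. Knockdown was visible in every library, with *apob-1* at 1229 to 1702 CPM (counts scaled to library size, with TMM normalization) in control and at 226 to 327 CPM in all *apob(RNAi)* libraries, and *apob-2* at 980 to 1625 CPM against 245 to 568 CPM. The neoblast marker *piwi-1* was at 404 ± 6.83 CPM (SD, n = 6) in control libraries, at 408 ± 22.3 CPM (n = 4) in the *apob-M* and at 429 ± 9.21 CPM (n = 4) in the *apob-S* ones, with no call in either comparison with control (adjusted p = 0.798 and 0.0623 by edgeR's quasi-likelihood test). *tgs-1*, a marker of a neoblast subset, was higher in both, at 10.5 ± 1.30 CPM in *apob-M* and 10.3 ± 0.569 CPM in *apob-S* against 6.59 ± 1.10 CPM in control (log2 fold changes 0.68 and 0.64, adjusted p = 0.000266 and 0.000156). Of 4 markers of other cell types, 1 was higher and 2 were lower in *apob-M* than in control, and 2 were lower in *apob-S*. The early epidermal progeny marker *prog-1* fell by 0.22 and 0.75 and the pharynx marker *laminin* by 0.44 and 0.97 on the log2 scale, and the neuron marker *ChAT* rose by 0.22 in *apob-M*, while the intestine marker *ctsla* differed from control by 0.00 and -0.03. These 4 markers summed to 2146.7 to 2337.7 CPM over control, 2097.8 to 2374.2 over *apob-M* and 1919.8 to 2273.9 over *apob-S* libraries. None of the 4 was at 0 in any library. Most of each sum was *ctsla*, with group means of 1844 CPM (control), 1846 CPM (*apob-M*) and 1804 CPM (*apob-S*). The sums therefore say little about *prog-1*, *laminin* and *ChAT*. In RNA from whole animals, a change in the number of dividing cells cannot be told apart from a change in RNA per cell, and the part of these shifts in the results on the 6 homologs was not tested.

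In *apob(RNAi)* animals the homolog of thymidylate synthase was lower, and that of CDC6 narrowly passed as higher in *apob-S*. Those of MCM3, MCM6, RPA2 and RRM1 did not pass the test. A transcript was called where the Benjamini-Hochberg adjusted p of edgeR's quasi-likelihood test, over all 18436 tested transcripts, was under 0.05. By this test CDC6 in *apob-S* had an adjusted p of 0.0441, and its call was lost in 12 alternative runs and kept in 7. The 12 include the stricter threshold of 0.01, at which the loss was fixed in advance. RPA2 (0.0569) and MCM6 (0.0575) just missed the threshold of 0.05 in *apob-S*. Of the 6 homologs, 1 was called in *apob-M* against control (16.7%), where 15.3% of all tested transcripts were called (7.05% higher and 8.24% lower), and 2 were called in *apob-S* (33.3%), against 29.3% of all (13.5% higher and 15.7% lower). None was called between *apob-S* and *apob-M*, against 12% of all (5.17% higher and 6.86% lower). The libraries of the 2 groups did not overlap for 1 homolog in *apob-M* against control (12.5% of all transcripts), for 2 in *apob-S* against control (22.1%) and for none between *apob-S* and *apob-M* (15.8%). These shares were close to the background, and the 2 called in *apob-S* went in opposite directions. Both comparisons share the same control libraries. The median log2 difference of the 6 came to 0.04 for *apob-M* and 0.10 for *apob-S*, beside -0.00 and -0.00 over all 18436 transcripts.

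**Figure D1:**
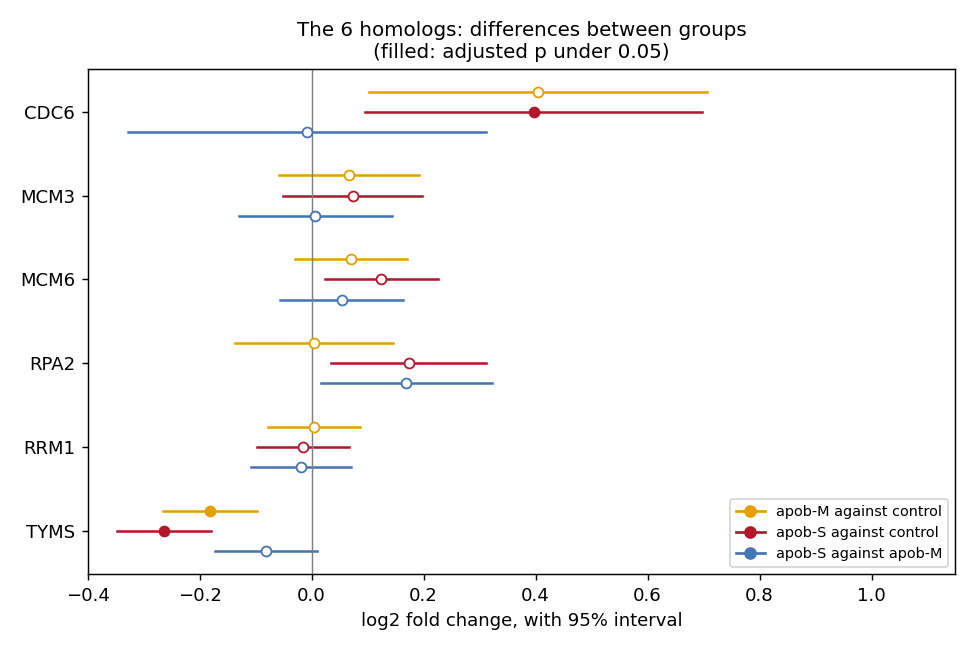
Log2 fold changes (x axis) of the 6 homologs with 95% intervals in the 3 comparisons; filled points passed an adjusted p of 0.05. TYMS was called lower in *apob-M* (-0.18) and *apob-S* (-0.26) and CDC6 higher in *apob-S* (0.40), while no homolog was called between *apob-S* and *apob-M*.

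The 6 homologs differed widely in level. Per kilobase of transcript, TYMS was the most abundant in control libraries, at 87.5 ± 3.38 CPM per kb, followed by RRM1 at 59.2 ± 2.33, MCM6 at 35.0 ± 2.40, RPA2 at 17.0 ± 1.01, MCM3 at 14.02 ± 0.589 and CDC6 at 1.51 ± 0.209 CPM per kb (SD, n = 6 each). No neighbours in this order overlapped between the control libraries. The order of the group means was the same in *apob-M* and *apob-S* libraries, although in *apob-M* the ranges of RPA2 (15.4 to 18.8 CPM per kb) and MCM3 (12.2 to 15.6 CPM per kb) touched. The depth behind these levels was also unequal. CDC6 rested on 38 to 71 counts per library and RPA2 on 251 to 374, whereas TYMS rested on 2374 to 3712 and RRM1 on 2672 to 3563.

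Thymidylate synthase, which makes the thymidine nucleotide of DNA from deoxyuridine monophosphate, was lower in both *apob(RNAi)* groups. TYMS ranged from 153 to 171 CPM in control libraries, with a median of 160. The *apob-M* libraries gave 138, 137, 143 and 148 CPM and the *apob-S* libraries 129, 134, 132 and 139 CPM. Every *apob(RNAi)* library was below every control library, and the *apob-M* and *apob-S* ranges overlapped. TYMS fell by 0.18 on the log2 scale in *apob-M* (SE 0.0397, 0.882-fold, adjusted p = 0.00376) and by 0.26 in *apob-S* (SE 0.0398, 0.833-fold, adjusted p = 4.14e-05). A two-sided exact permutation test gave 0.00952 for both, the smallest p that 6 against 4 libraries allow. The drop in *apob-M* was close to the threshold in some analyses, and its adjusted p was 0.0548 by edgeR's exact test and 0.0553 when libraries were scaled by size alone. The drop in *apob-S* passed under every alternative run. *apob-S* and *apob-M* did not pass a test against each other (log2 difference -0.08, 95% interval -0.173 to 0.0091, adjusted p = 0.264).

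RRM1, the large subunit of ribonucleotide reductase, which holds the catalytic site for reducing ribonucleotides, was nearly level across groups. Control libraries ranged from 148 to 166 CPM with a median of 154. RRM1 was at 155, 149, 162 and 156 CPM in *apob-M* and at 148, 152, 158 and 157 CPM in *apob-S* libraries. The 3 ranges overlapped. The log2 differences from control were 0.01 in *apob-M* (95% interval -0.077 to 0.0872, adjusted p = 0.955) and -0.01 in *apob-S* (95% interval -0.0966 to 0.0677, adjusted p = 0.83), so that both intervals allow only small changes in either direction.

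**Figure D2:**
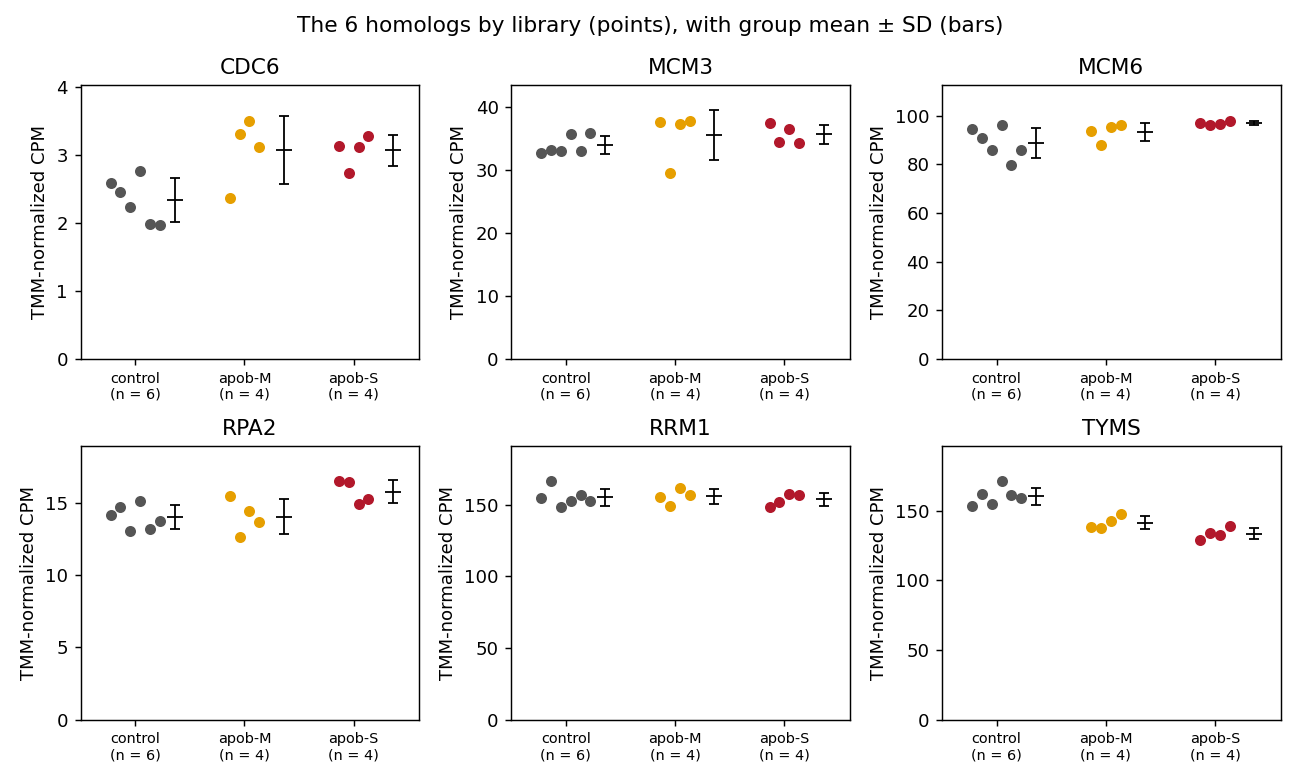
TMM-normalized CPM of the 6 homologs in each of 14 libraries (points), by group on the x axis, with the group mean and SD beside them (bars). TYMS lay at 153 to 171 CPM in control, above the 129 to 148 CPM of the 8 *apob(RNAi)* libraries, whereas RRM1 stayed between 148 and 166 CPM in all 3 groups and MCM3 had 1 low *apob-M* library at 29.6 CPM.

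The small subunit RRM2, which carries the radical that the reaction needs and is known in mammals to limit the enzyme in S phase, moved apart from RRM1. RRM2 (dd_Smed_v6_2286_0_1) was at 35.5 to 38.8 CPM in control libraries, with a median of 35.7. It was at 41.6, 41.1, 44.9 and 43.7 CPM in *apob-M* and at 42.2, 46.1, 47.0 and 45.5 CPM in *apob-S* libraries, all above control. RRM2 rose by 0.24 in *apob-M* (SE 0.0411, adjusted p = 0.0004) and by 0.32 in *apob-S* (SE 0.0409, adjusted p = 5.69e-06). The second small subunit homolog, RRM2B (dd_Smed_v6_5862_0_1), was at 17.4 ± 0.592 CPM in control libraries, 17.9 ± 1.08 CPM in the *apob-M* and 21.3 ± 1.52 CPM in the *apob-S* ones. It rose by 0.29 in *apob-S* against control (adjusted p = 0.000575) and by 0.25 against *apob-M* (adjusted p = 0.0118). A read with several alignments was counted at each of them, so that RRM2 and RRM2B may share counts.

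The balance of the large and small subunit was compared within each library, where no scaling between libraries enters. The log2 ratio of RRM1 to RRM2 was 2.10 ± 0.0249 (SD, n = 6) in control libraries, with means of 1.86 ± 0.0264 (n = 4) for *apob-M* and 1.76 ± 0.0406 (n = 4) for *apob-S*. Single libraries lay between 2.06 and 2.14 for control, between 1.84 and 1.90 for *apob-M* and between 1.72 and 1.81 for *apob-S*, and no group overlapped another. Both *apob(RNAi)* groups were below control, by 0.24 and 0.33 on the log2 scale (exact permutation p = 0.00952 each, 0.0286 after Benjamini-Hochberg adjustment over 6 ratio tests). The step from *apob-M* to *apob-S* was -0.10, with an exact p of 0.0286, the smallest that 4 against 4 libraries allow, and 0.0571 after adjustment.

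**Figure D3:**
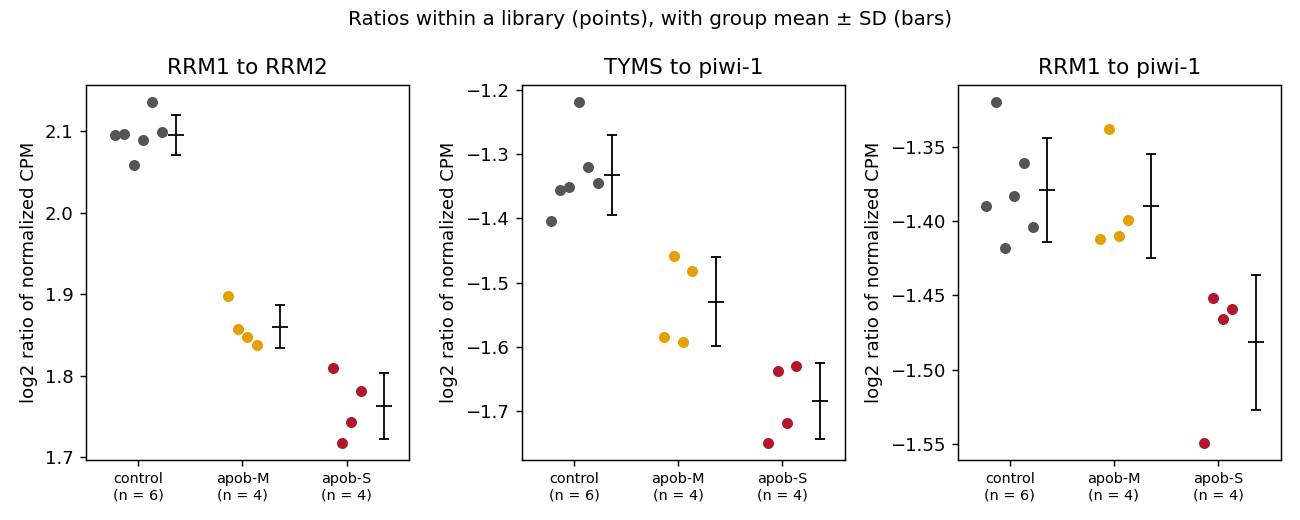
Log2 ratios of normalized CPM within each library (points) for RRM1 to RRM2, TYMS to *piwi-1* and RRM1 to *piwi-1*, by group, with the group mean and SD beside them (bars). The RRM1 to RRM2 ratio spanned 2.06 to 2.14 for control libraries, 1.84 to 1.90 for *apob-M* and 1.72 to 1.81 for *apob-S*, without overlap.

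Other enzymes of deoxynucleotide supply were placed beside RRM1 and TYMS. DUT, which makes the substrate of TYMS by cleaving deoxyuridine triphosphate, and DTYMK, which phosphorylates its product, were both higher in *apob-S* than in control. DUT rose by 0.45 (SE 0.0848, adjusted p = 0.000393) and DTYMK by 0.20 (SE 0.0462, adjusted p = 0.00302). In *apob-M*, DUT rose by 0.31 (adjusted p = 0.0191), while DTYMK differed from control by 0.13 (adjusted p = 0.0658). DCTD, also listed under deoxynucleotide synthesis, differed by -0.14 in *apob-M* (adjusted p = 0.305) and by -0.18 in *apob-S* (adjusted p = 0.121), without a call. Of 8 deoxynucleotide transcripts, TYMS alone was called lower in either group, where 8.24% and 15.7% of all transcripts were lower. Of the 8, 2 were called higher for *apob-M*, where 7.05% of all transcripts were, and 5 for *apob-S*, where 13.5% were. Called or not, 2 of the 8 log2 differences were negative in *apob-M* and 3 in *apob-S*. The difference between TYMS and these enzymes was not tested.

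MCM3 and MCM6, a pair of subunits of the replicative helicase, did not pass the test in any comparison. MCM3 ranged from 32.8 to 35.9 CPM in control libraries, with a median of 33.2. It was at 37.7, 29.6, 37.3 and 37.9 CPM in *apob-M* and at 37.5, 34.5, 36.6 and 34.4 CPM in *apob-S* libraries. The value of 29.6 CPM, in *apob-M* replicate 2, was below all control libraries, and the other 3 *apob-M* libraries were above all of them. The log2 differences of MCM3 from control were 0.07 in both groups (95% intervals -0.0584 to 0.192 and -0.0513 to 0.198, adjusted p = 0.516 and 0.404). Without *apob-M* replicate 2, MCM3 was called higher in *apob-M* (log2 fold change 0.15, adjusted p = 0.0335). That library held the lowest value of its group for 5 of the 6 homologs, and the lowest *piwi-1* level, 377 CPM.

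MCM6 ranged from 79.9 to 96.0 CPM in control libraries, with a median of 88.4. The *apob-M* libraries gave 93.9, 88.0, 95.2 and 96.3 CPM, within or just above the control range. The *apob-S* libraries gave 96.8, 96.2, 96.6 and 97.9 CPM, all above the highest control library, by as little as 96.2 against 96.0. Their coefficient of variation, 0.763%, was smaller than the 2.25% that counting error alone gives at this depth. The log2 difference was 0.12 in *apob-S* (SE 0.0477, adjusted p = 0.0575) and 0.07 in *apob-M* (SE 0.0478, adjusted p = 0.37). The *apob-S* difference passed by DESeq2 (adjusted p = 0.0319), by limma-voom (0.0366), with size factors of DESeq2 (0.0484), with a filter at 5 CPM (0.039) and without control replicate 1 (0.0317) or 4 (0.0261), so its call depended on the analysis. The log2 ratio of MCM3 to MCM6 within a library averaged -1.38 ± 0.106 for control (n = 6), -1.39 ± 0.118 for *apob-M* (n = 4) and -1.44 ± 0.0661 for *apob-S* (n = 4), and did not differ beyond its spread (exact permutation p = 0.895 and 0.39 against control).

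The other helicase subunits gave larger differences. MCM7 (dd_Smed_v6_4712_0_1) was at 42.5 to 44.9 CPM in control libraries. The *apob-M* libraries gave 50.5, 44.6, 53.2 and 51.6 CPM and the *apob-S* libraries 58.4, 54.7, 54.1 and 61.6 CPM. It rose by 0.20 in *apob-M* (adjusted p = 0.00871), by 0.39 in *apob-S* (adjusted p = 3.58e-06) and by 0.19 from *apob-M* to *apob-S* (adjusted p = 0.0198). MCM2, MCM4 and MCM5 rose by 0.25, 0.25 and 0.27 in *apob-S* (adjusted p = 0.000179, 0.00176 and 0.00107), and MCM2 and MCM4 by 0.15 and 0.18 in *apob-M* (adjusted p = 0.0214 and 0.0378), where MCM5 differed by 0.09 (adjusted p = 0.343). Of the 6 subunits, 3 were called higher in *apob-M* (50%, against 7.05% of all transcripts) and 4 in *apob-S* (66.7%, against 13.5%), none lower, and the 2 that were not called in either were MCM3 and MCM6. Whether these subunits differ from each other was tested for MCM3 and MCM6 alone. The subunits form one ring in equal number, yet MCM6 stood at 35.0 CPM per kb in control libraries, against 9.08 for MCM2, 10.99 for MCM5, 12.5 for MCM4, 14.02 for MCM3 and 18.7 for MCM7.

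**Figure D4:**
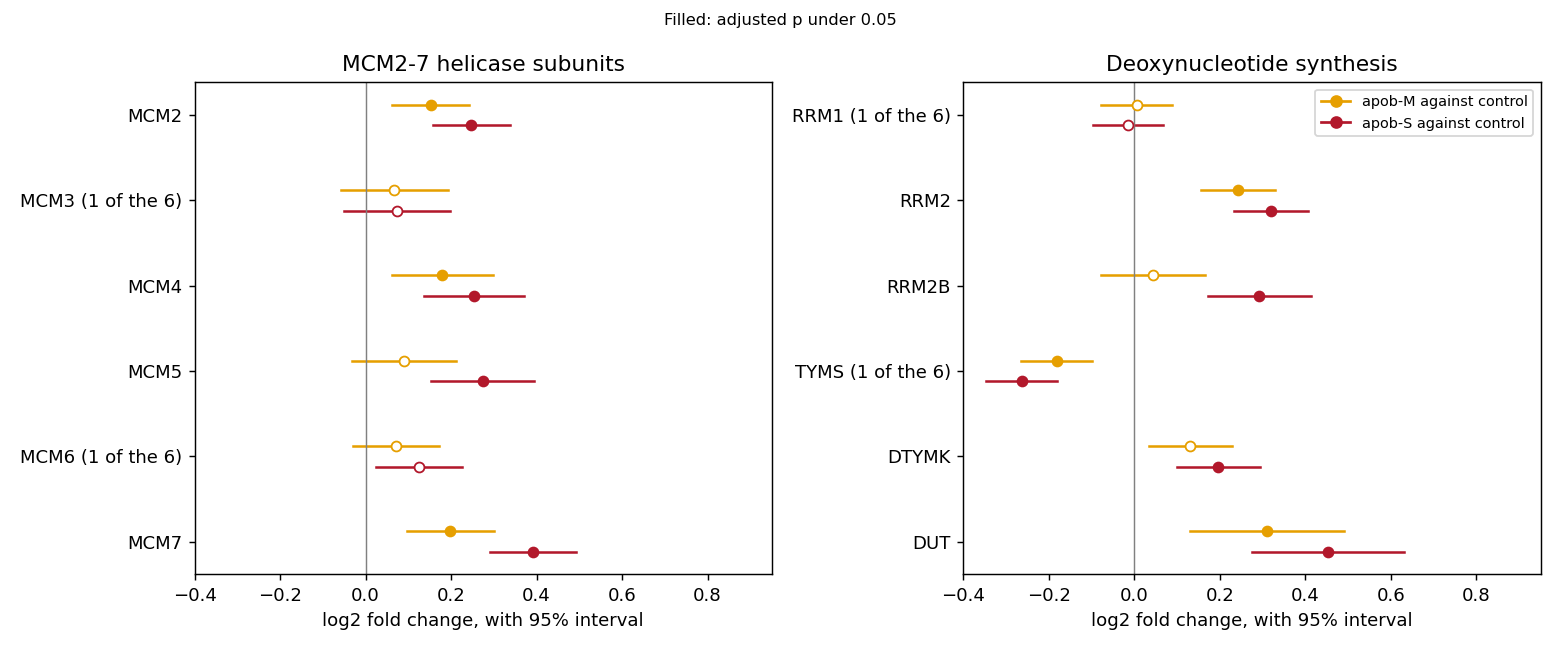
Log2 fold changes against control (x axis) with 95% intervals for the MCM2 to MCM7 helicase subunits and for 6 transcripts of deoxynucleotide synthesis, in *apob-M* and *apob-S*; filled points passed an adjusted p of 0.05. MCM7 at 0.39 and DUT at 0.45 lay farthest to the right in *apob-S*, TYMS at -0.26 to the left, and RRM1 at -0.01 on the line of no change.

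RPA2, the middle subunit of the protein that binds single-stranded DNA, ranged from 13.1 to 15.1 CPM in control libraries, with a median of 13.98. It was at 15.5, 12.6, 14.4 and 13.7 CPM in *apob-M* libraries and at 16.5, 16.4, 14.9 and 15.2 CPM in *apob-S* libraries. The *apob-M* libraries spread over more than the control range, and 3 of 4 *apob-S* libraries lay above it. RPA2 differed from control by 0.00 in *apob-M* (95% interval -0.137 to 0.145, adjusted p = 0.98) and by 0.17 in *apob-S* (SE 0.0662, adjusted p = 0.0569). The latter passed when *apob-S* and control were fitted alone (adjusted p = 0.0469), without control replicate 4 (0.0397) and without *apob-S* replicate 3 (0.0469). PCNA, the sliding clamp of the replication fork, rose by 0.33 in *apob-S* (SE 0.0537, adjusted p = 8.54e-05) and differed by 0.16 in *apob-M* (adjusted p = 0.0618).

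CDC6, the loading factor for the helicase, was the scarcest of the 6. It ranged from 1.97 to 2.76 CPM in control libraries, with a median of 2.35. It was at 2.37, 3.32, 3.51 and 3.11 CPM in *apob-M* and at 3.13, 2.74, 3.12 and 3.28 CPM in *apob-S* libraries. In each *apob(RNAi)* group 3 of 4 libraries were above all control libraries and 1 was within their range. CDC6 rose by 0.40 in *apob-S* (SE 0.143, 1.32-fold, adjusted p = 0.0441), and its log2 difference in *apob-M* was 0.40 as well (SE 0.144, adjusted p = 0.0654). With 38 to 71 counts per library, counting error alone gave a coefficient of variation of 12.7 to 14.7%, against an observed 7.48 to 16.3%. The call in *apob-S* was lost by DESeq2 (adjusted p = 0.0548), with library size alone (0.0696), with no filter on low counts (0.0581) and when any 1 of control replicates 2, 3, 5 and 6 or *apob-S* replicates 1, 3 and 4 was left out (0.0548 to 0.102). CDT1, its partner in licensing, had a pair of transcripts, which may share reads. One (dd_Smed_v6_11432_0_1) rose by 0.28 in *apob-S* against control (adjusted p = 0.0159) and by 0.30 against *apob-M* (adjusted p = 0.0416). The other (dd_Smed_v6_13580_0_1) was not called, with differences of 0.245 (adjusted p = 0.0674) and 0.117 (adjusted p = 0.564).

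A wider list of 49 replication transcripts, all tested, set these values in context. It was drawn from tables that were held in part and that favour transcripts enriched in cycling cells, and was chosen with earlier results of these data known. In *apob-M* against control, 5 were higher and 1 was lower (12.2%, against 15.3% of all transcripts, 7.05% higher and 8.24% lower). The median log2 difference of the list was 0.06. In *apob-S*, 13 were higher and 2 lower (30.6%, against 29.3% of all, 13.5% higher and 15.7% lower). The list median was 0.14, and 41 of 49 differences were above 0, beside a median of -0.00 over all transcripts. The 2 lower transcripts were TYMS and RFC5, a clamp loader subunit, which fell by 0.15 (adjusted p = 0.04). Between *apob-S* and *apob-M*, 3 were higher and none lower (6.12%, against 12% of all, 5.17% higher and 6.86% lower), with a median of 0.10. They were MCM7, RRM2B and the CDT1 transcript dd_Smed_v6_11432_0_1, but not the other CDT1 transcript. Scaling by library size alone took these 3 calls to 0.

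Counts by role were small. In *apob-S* against control, where 29.3% of all transcripts were called, 4 of 6 helicase subunits (66.7%) and 6 of 8 deoxynucleotide transcripts (75%) were called. For origin licensing it was 2 of 7 (28.6%), for polymerases, primase and the fork 2 of 17 (11.8%), for histone deposition 1 of 5 (20%) and for helicase activation 0 of 6. The histone deposition transcript called was NASP, a histone chaperone, which rose by 0.23 (adjusted p = 0.0133). No test was made between roles.

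**Figure D5:**
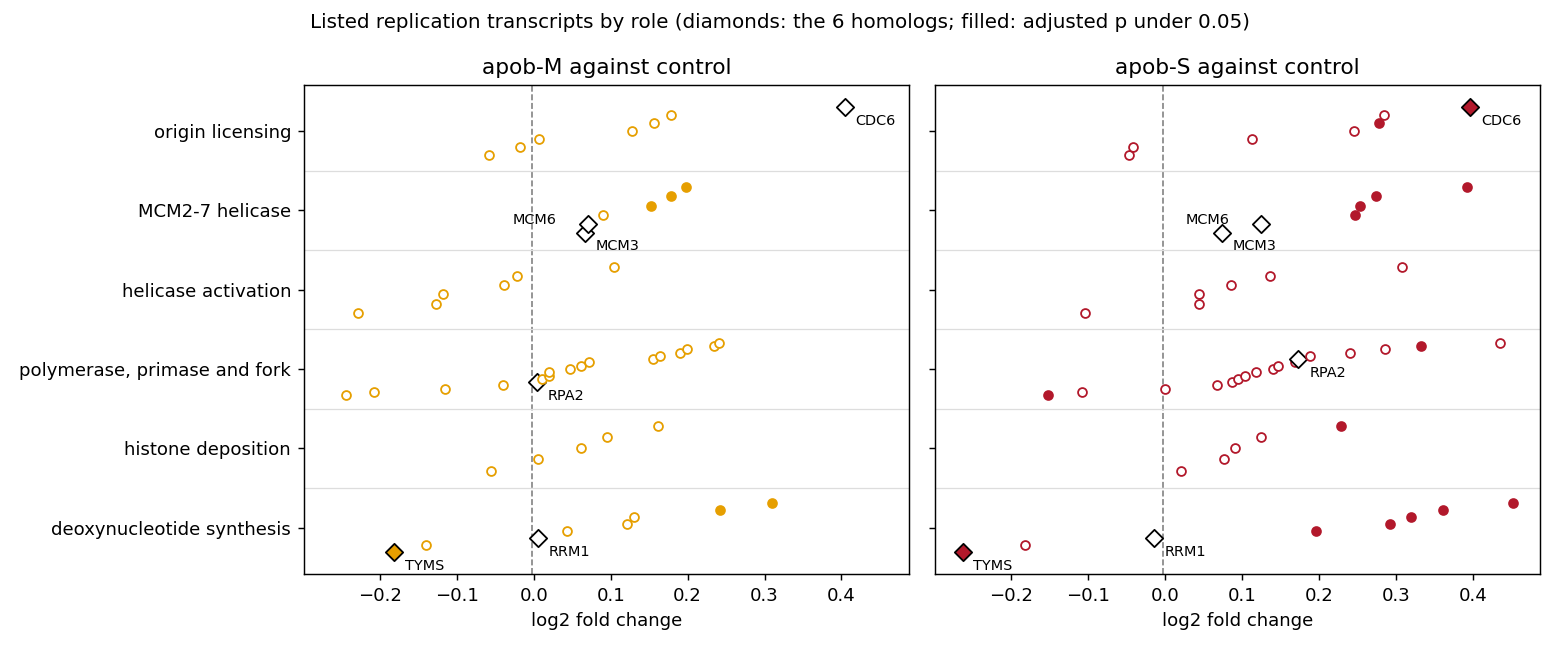
Log2 fold changes against control (x axis) of 49 replication transcripts by role (y axis), in *apob-M* and *apob-S*; diamonds mark the 6 homologs, filled symbols passed an adjusted p of 0.05, and the dashed line is the median of all tested transcripts. In *apob-S*, 4 of 6 helicase subunits and 5 deoxynucleotide transcripts lay to the right as called, and TYMS and RFC5 lay to the left.

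Mitosis transcripts were the closest group for comparison. Of 21 listed, 19 were tested, and 2 were higher and 1 lower in *apob-M* (15.8%, against 15.3% of all transcripts), 4 higher and 1 lower in *apob-S* (26.3%, against 29.3%), and none was called between the groups (12% of all), with medians of 0.01, 0.05 and 0.00. Over all transcripts, 7.05% were higher and 8.24% lower in *apob-M*, and 13.5% and 15.7% in *apob-S*. CCNB2, a mitotic cyclin, was the highest of the mitosis transcripts called in *apob-M* at 0.22 (adjusted p = 0.021). The lowest was a transcript of AURKC, an Aurora kinase (dd_Smed_v6_10323_0_1), at -0.26 (adjusted p = 0.0116). The other AURKC transcripts differed by -0.12 and -0.07 and were not called (adjusted p = 0.514 and 0.602). KIF20B, a kinesin of cell division, was the highest in *apob-S* at 0.29 (adjusted p = 0.0437) and NDC80, a kinetochore protein, the lowest at -0.52 (adjusted p = 0.0149).

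The homologs were also set against *piwi-1* in the same library. The log2 ratio of TYMS to *piwi-1* averaged -1.33 ± 0.0621 for control (n = 6), -1.53 ± 0.0689 for *apob-M* (n = 4) and -1.68 ± 0.0593 for *apob-S* libraries (n = 4). The ranges were -1.40 to -1.22, -1.59 to -1.46 and -1.75 to -1.63, with no overlap between any groups. The differences from control of -0.20 and -0.35 had the smallest exact permutation p possible, 0.00952, which became 0.0571 after adjustment over 18 ratio tests, and the difference of -0.15 between *apob-S* and *apob-M* had 0.0286, adjusted 0.0857. RRM1 relative to *piwi-1* averaged -1.38 ± 0.035 for control, -1.39 ± 0.035 for *apob-M* and -1.48 ± 0.0451 for *apob-S* libraries, and every *apob-S* library was below every other library (difference from control -0.10, exact p = 0.00952, adjusted 0.0571). Of the remaining 4 homologs, no ratio to *piwi-1* separated the groups. No ratio to *piwi-1* passed after adjustment. *piwi-1* was itself higher in *apob-S* by 0.09 on the log2 scale, without a call, and every *apob-S* library exceeded every control library. Without that reference, RRM1 differed from control by -0.01 in *apob-S* and TYMS by -0.26. The part of *piwi-1* in these ratios was not tested. The choice of reference mattered, since *tgs-1* was itself higher in both groups. Against *tgs-1*, all 6 homologs were lower than control on average, from -0.30 for CDC6 to -0.86 for TYMS in *apob-M* and from -0.26 to -0.91 in *apob-S*. These ratios passed (adjusted p = 0.019 each by the exact permutation test), except both of CDC6 and that of RPA2 in *apob-S*. The ratios of CDC6 to *piwi-1*, 0.36 and 0.30, thus turned in sign, as did those of MCM6 (0.06 and 0.04), that of MCM3 in *apob-M* (0.05) and that of RPA2 in *apob-S* (0.08).

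The likeness of the 6 was measured as the root-mean-square difference of log2 CPM, relative to the control mean, over the 14 libraries. Among the 6, MCM6 and RPA2 were the closest pair at 0.0798, followed by MCM3 and MCM6 at 0.094, and TYMS and CDC6 were the farthest at 0.486. These distances include counting error, which was largest for CDC6, at 38 to 71 counts per library. The median transcript was at 0.36 from CDC6, against 0.154 to 0.222 from the other homologs. Many other transcripts were nearer. Ranked by nearness over all transcripts compared, RPA2 had rank 469 from MCM6, and MCM6 had rank 43 from RPA2. MCM3 had rank 1207 from MCM6, and MCM6 had rank 393 from MCM3. Among 13395 other transcripts, the most like TYMS was dd_Smed_v6_78_0_1, which the study lists as *gapdh*, a glycolytic enzyme, at 0.0339 where the median transcript was at 0.222. It was lower by 0.20 in *apob-M* and by 0.26 in *apob-S*. It was picked for its likeness to TYMS in these same libraries, so these falls follow from the choice and are not separate evidence. The transcripts nearest to the other homologs had no best hit in the tables used here, namely dd_Smed_v6_1475_0_1 for RRM1 (0.0345), dd_Smed_v6_7449_0_1 for MCM6 (0.0412), dd_Smed_v6_5717_0_1 for MCM3 (0.0498), dd_Smed_v6_6977_0_1 for RPA2 (0.0563) and dd_Smed_v6_12343_0_1 for CDC6 (0.128). None of the 49 listed replication transcripts was among the 3 nearest to any of the 6.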

How the data were processed

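RNA-seq counts of 14 libraries (6 control, 4 *apob-M*, 4 *apob-S*) were analysed. After trimming with BBDuk, the authors aligned the reads to the unique dd_Smed_v6 transcripts with Bowtie2 (version 2.3.1) and ran featureCounts of Subread (version 1.6.3), in which a read with several alignments counted at each. These counts per transcript were deposited without normalization. Their own comparison table (log2 fold changes, mean log2 CPM and false discovery rates) was not used, and no genome was used, so no coordinates or sequences are given.

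Total counts were 16839133 to 23039326 per library. The low-count filter, 1 CPM or more in 4 or more libraries, kept 18436 of 28069 transcripts (at least 99.7% of counts), with TMM factors of 0.919 to 1.04. All 14 libraries were fitted with group as the only term by the quasi-likelihood test of edgeR 4.0.16 in R 4.3.3, with Benjamini-Hochberg adjustment over all tested transcripts. Intervals of 95% use the standard error and degrees of freedom of this fit. Single values and log2 ratios (prior count 2) were tested by two-sided exact permutation tests over libraries. Scripts were tested on simulated counts. The 6 homologs and the lists were chosen with earlier results of these data known.

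Values were given for the 6 homologs, *piwi-1*, *tgs-1*, the targets, the partners in the helicase and in deoxynucleotide supply with PCNA (a partner is counted in its list but not reported here), the 3 other called replication transcripts with the largest and most negative changes per comparison, the highest and lowest called mitosis transcript, and for likeness the 3 nearest transcripts (mean log2 CPM 2 or more), of which the first is named. The other markers were added as cell type markers. Human best hits came from tables held in part, with 3100 transcripts. Libraries are separate pools of animals, so p-values measure the spread between pools. The closest 2 libraries within a group differed by 2.96 times the counting variance. The results were recomputed with DESeq2 1.42.0, with limma-voom (limma 3.58.1) and with the exact test of edgeR, with other scalings and filters, with fits of only the groups compared, with a block for the replicate number, at a threshold of 0.01 and without each library in turn.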

Additional observations from a re-analysis of the deposited data

Results flagged for a closer look

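In 4 of 42 sets of values (6 homologs and 8 ratios in 3 groups), 1 library stood apart from the rest of its group by Dixon's 95% limit, where chance gives about 1 in 20. MCM3 was at 29.59 CPM in *apob-M* replicate 2 against 37.3 to 37.89 CPM in the other 3 *apob-M* libraries, and the log2 ratio of MCM3 to MCM6 in that library was -1.569 against -1.349 to -1.314. The log2 ratio of RPA2 to *piwi-1* was -4.733 in *apob-M* replicate 1 against -4.906 to -4.889 in the others. The log2 ratio of RRM1 to *piwi-1* was -1.549 in *apob-S* replicate 1 against -1.466 to -1.452, and without that library the *apob-S* difference from control stayed negative.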

How the results depend on the processing

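TYMS was lower in *apob-S* than in control under every alternative run, and RRM1, MCM3 and all *apob-S* against *apob-M* differences of the 6 homologs kept their side of the threshold, except that MCM3 was called in *apob-M* without *apob-M* replicate 2 (0.15, adjusted p = 0.0335). With edgeR's exact test, TYMS in *apob-M* was -0.18 without a call, leaving 0 homologs called. With library size alone, 1795 transcripts were called in *apob-M*, TYMS was -0.17 and 0 homologs were called, the replication list gave 3 higher and 0 lower in *apob-M*, 1 lower in *apob-S* and 0 higher from *apob-M* to *apob-S* with a median of 0.0764, MCM3 between those groups turned to -0.01, and in *apob-S* CDC6 was 0.39 without a call, leaving 1 homolog. With no filter the list gave 3 higher in *apob-M* and 1 lower in *apob-S*, and CDC6 was 0.40 without a call, leaving 1 homolog. With DESeq2, CDC6 was 0.40 without a call. MCM6 in *apob-S* was called at 0.13 by DESeq2, limma-voom and with size factors of DESeq2 and at 0.12 with a filter at 5 CPM, RPA2 at 0.17 with the compared groups alone. That filter gave 6 list transcripts higher from *apob-M* to *apob-S*, with a median of 0.0777 over 40 transcripts. By limma-voom CDC6 was 0.00 between them, above 0. At a threshold of 0.01, 1537 and 1267 transcripts were called in *apob-M* against control and against *apob-S*, and CDC6 (0.40) was not, leaving 1 homolog in *apob-S*.

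Same-numbered libraries showed no shared deviation (12 pairs, correlations -0.198 to 0.125), although low correlations cannot exclude a pairing. Differently numbered libraries reached 0.239, for *apob-M* replicate 3 with *apob-S* replicate 2. With the replicate block, 2102, 4670 and 2127 transcripts were called in the 3 comparisons, RPA2 in *apob-M* was -0.02, and CDC6 in *apob-S* was 0.29 without a call, leaving 1 homolog.

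Against *tgs-1*, itself higher in both groups, the ratios to control in *apob-M* and *apob-S* were -0.30 and -0.26 for CDC6, -0.62 and -0.58 for MCM3, -0.61 and -0.52 for MCM6, -0.68 and -0.48 for RPA2, -0.67 and -0.66 for RRM1 and -0.86 and -0.91 for TYMS, all passing except both of CDC6 and RPA2 in *apob-S*. Between the groups they were 0.04 for CDC6, 0.04 for MCM3, 0.08 for MCM6, 0.20 for RPA2, 0.01 for RRM1 and -0.05 for TYMS, none passing.

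Leaving out 1 library at a time, 1 to 2 homologs were called in *apob-M*, 1 to 4 in *apob-S* and 0 between them. In *apob-M* log2 changes ran from 0.34 to 0.51 for CDC6 (called without control replicate 4 or *apob-M* replicate 1), 0.04 to 0.15 for MCM3, -0.04 to 0.05 for RPA2 and -0.01 to 0.03 for RRM1. In *apob-S* they ran from 0.35 to 0.45 for CDC6, 0.10 to 0.15 for MCM6, 0.15 to 0.20 for RPA2 and -0.03 to 0.01 for RRM1. Between the groups they ran from -0.11 to 0.06 for CDC6, -0.07 to 0.04 for MCM3 and -0.04 to 0.00 for RRM1. Ratios to *piwi-1* ran from -0.03 to 0.00 for RRM1 and -0.05 to 0.01 for RPA2 in *apob-M*, -0.03 to 0.01 for MCM3 in *apob-S* and -0.19 to 0.01 for CDC6 between the groups, and MCM3 to MCM6 from -0.04 to 0.05 in *apob-M*. The ratio of RRM1 to RRM2 ran from -0.25 to -0.23 and from -0.35 to -0.32. Its adjusted p was 0.0714 whenever an *apob(RNAi)* library was left out, since 6 against 3 libraries cannot give a smaller one here. The cause of the other changes was not tested. CDC6, at under 100 counts, is the value that depth limits most.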
